A study of Mus musculus with 8 samples.

Results

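Brown adipose tissue (BAT) clears triglyceride-rich lipoproteins from the blood, and 10 genes of that route were followed here in the 8 deposited RNA-Seq libraries. The 10 genes are Lpl, Gpihbp1, Angptl4, Lmf1, Cd36, Vldlr, Slc27a1, Slc27a2, Fabp3 and Mfsd2a, matched by symbol among the 49452 genes of the table, and each was found once. All were named with earlier results of these data known, and Mfsd2a was selected on its FPKM in the 4 °C and 22 °C libraries, where it was higher in the cold, so its values there are a description without a test. All libraries came from BAT of male C57BL/6 mice, in 4 groups of 2 libraries. In the temperature comparison, mice of 10 to 12 weeks were kept at 22 °C (replicates 4 and 7) or at 4 °C for 24 h (replicates 2 and 11). Per the methods, the cold exposure lasted 20 h and a fast of 4 h followed, and the sources do not make clear whether the 22 °C mice were fasted, so cold and fasting cannot be told apart. In the diet comparison, mice of 32 weeks had been fed for 28 weeks a high-fat diet (HFD, 54% of energy from fat, replicates 2 and 6) or the control food (CD, replicates 6 and 8). The labels call the control food normal chow, whereas the methods describe a control diet with 11% of energy from fat. The labels name separate samples and not separate animals, so p-values measure the spread between these samples.

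Lipoprotein lipase, encoded by Lpl, is made by adipocytes and hydrolyses triglycerides of chylomicrons and very-low-density lipoproteins on the capillary wall. LMF1 is needed for the lipase to fold in the endoplasmic reticulum, GPIHBP1 carries it across endothelial cells and anchors it in the capillary, and ANGPTL4 inactivates it. The released fatty acids enter cells with the help of the scavenger receptor CD36 and the fatty acid transport proteins, are bound inside by FABPs, and feed heat production and triglyceride storage in BAT. Cold exposure and fasting are both textbook regulators of this route.

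The 8 libraries carried the markers of BAT, and markers of white adipocytes differed between the diet groups. The FPKM (fragments per kilobase of transcript, scaled to the mapped fragments of the library) of 8 adipocyte markers summed to between 5130 and 10800. That of 10 brown adipocyte markers summed to 2780 and 3780 at 22 °C, 10100 and 8400 at 4 °C, 8650 and 5030 in CD and 4270 and 6580 in HFD. In the cold 3 of these 10 passed the threshold given below as higher, beside 1.22% of all genes tested, and their part in the cold results was not tested. The 8 white adipocyte markers summed to 173 and 100 FPKM at 22 °C, 288 and 149 at 4 °C, 33.7 and 23.1 in CD and 228 and 236 in HFD. Of the 5 that were tested, 2 rose under HFD (Lep and Nnat, each with an adjusted p of 0.0425 from limma), beside 0.0684% of all genes tested past the threshold. Both HFD libraries were higher for 4 of the 5, beside 39.9% of all genes tested. The part of white adipocyte markers in the diet results was not tested. The table states no depth. By the size of the steps between low values, 1 fragment on a transcript of 2000 bases was worth 0.00437 to 0.00601 FPKM, depending on the library, and every member except Mfsd2a at 22 °C rested on an estimated 690 fragments or more in every library. Between 23543 and 32686 genes were above 0 per library. Genes of the X chromosome were listed at 0 in both 22 °C libraries and in CD replicate 6, whereas the other 5 libraries listed 779 to 1175 of them above 0. This split falls with the groups in the temperature comparison and cannot be told apart from them there. Within CD it separates replicate 6 from replicate 8, and the higher of these exceeded the lower by a factor of 1.0 for Lpl, 1.05 for Fabp3, 1.87 for Cd36 and 1.91 for Gpihbp1, the other 6 members lying between 1.06 and 1.31. In the sample descriptions CD replicate 6 shares a name prefix with the temperature libraries, while CD replicate 8 and both HFD libraries share a different prefix. The prefix thus falls partly with the diet groups. The part of the split and of the prefix in the results was not tested. The satellite-repeat gene Gm10800 exceeded 100 FPKM in replicate 4 of the 22 °C group, replicate 11 of 4 °C, replicate 8 of CD and replicate 2 of HFD. For each member the text gives the difference between these satellite-high libraries and, after it, that between the other, satellite-low, libraries. Summed FPKM of 11 skeletal muscle markers ranged from 15.5 in HFD replicate 6 to 4560 in 4 °C replicate 2. In such bulk tissue, fewer cells of a type and less RNA per cell cannot be told apart.

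Of the 9 members tested between 4 °C and 22 °C, Fabp3 rose and the other 8 did not pass the threshold (adjusted p under 0.05 and a log2 fold change of at least 1). Over all 17477 genes tested 1.44% passed, and 1.22% passed as higher. An unadjusted p under 0.05 from limma was reached by 5 of the 9 members, beside 24.5% of all genes tested. For 8 of the 9 members, Lmf1 excepted, the 2 libraries from 4 °C exceeded the 2 from 22 °C, a pattern held by 37.9% of all genes tested and by 48.2% of mRNA genes averaging 1 FPKM or more. For 0 of 9 were they both lower, beside 20.6% of all genes tested. The median log2 fold change of the 9 members was 0.86. Mfsd2a, chosen for it, showed the widest gap of the 10 genes. Between HFD and CD, 0 of 10 members passed by limma, beside 0.0684% of the 17543 genes tested, and 1 member (Slc27a2) had an unadjusted p under 0.05, beside 14.4% of all genes tested. Both HFD libraries were above both CD libraries for Gpihbp1, Angptl4 and Fabp3 (39.9% of all genes tested) and below them for Lpl and Slc27a2 (5.8% of all genes tested), and the median log2 fold change of the 10 members was 0.18. Over all genes averaging 1 FPKM or more, the median log2 fold change was itself 0.21 between 4 °C and 22 °C and 0.29 between HFD and CD, and values after removing such shifts are given below.

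**Figure D1:**
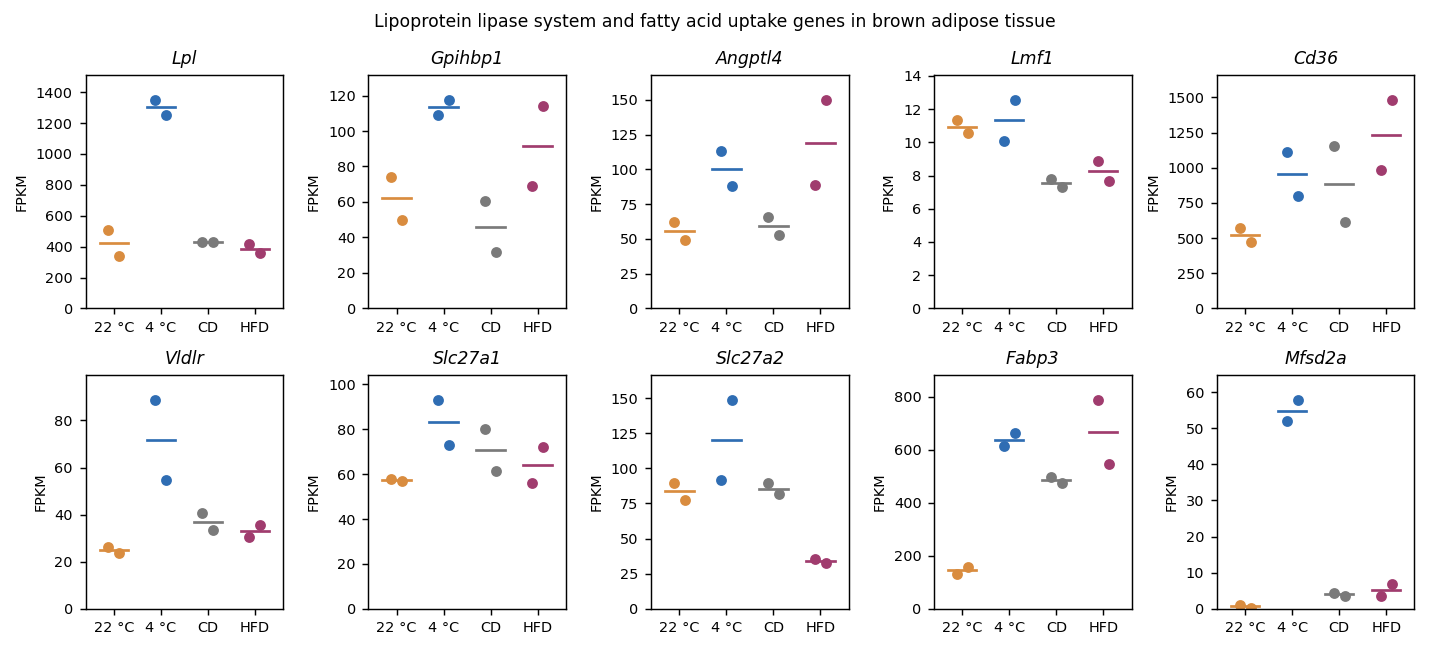
FPKM of the 10 members in the 4 groups, with 1 panel per gene and a vertical axis that starts at 0. Points are libraries (2 per group) and lines are group means. Both 4 °C points lie above both 22 °C points for 8 of the 9 members other than Mfsd2a, which was chosen for it (Lmf1 is the exception), as for 37.9% of all genes tested, and both HFD points lie below both CD points for Lpl and Slc27a2.

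Lpl (ENSMUSG00000015568, GRCm38 chr8:68880491-68907448, plus strand) measured 510.3 and 336.7 FPKM at 22 °C and 1352 and 1252 FPKM at 4 °C. It was at 432.9 and 432.8 FPKM in the CD libraries and at 416.2 and 357.5 FPKM in the HFD libraries. The 4 °C libraries therefore stood alone, at 3.07 times the 22 °C mean, and the other 3 groups lay between 336.7 and 510.3 FPKM. The group means were 423.5 ± 122.8 at 22 °C, 1302 ± 70.91 at 4 °C, 432.8 ± 0.0806 in CD and 386.8 ± 41.5 FPKM in HFD (SD over 2 libraries). From 22 °C to 4 °C the difference was 1.65 on the log2 scale (SE 0.36) with an adjusted p of 0.0771 from limma, just outside the threshold, and this adjusted p ranged from 0.0404 to 0.438 over 15 other settings. Lpl passed with library type as a covariate (adjusted p 0.0404, with 4.92% of all genes past) and when all 8 libraries were fitted with it (0.0486, with 4.3% past). It was 1.29 within the satellite-high and 2.0 within the satellite-low libraries. Fasting of the 4 °C mice cannot be told apart from cold for this gene. Between HFD and CD the log2 fold change of Lpl was −0.17 (SE 0.60, adjusted p 0.924), and −0.06 and −0.28 within library types.

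Lmf1 (ENSMUSG00000002279, chr17:25579174-25662826, plus strand), the maturation factor of the lipase, had the smallest fold change of the 10 genes in both comparisons as analysed on the deposited scale. It was at 11.36 and 10.54 FPKM at 22 °C, 10.09 and 12.57 FPKM at 4 °C, 7.78 and 7.335 FPKM in CD and 8.864 and 7.652 FPKM in HFD. The temperature groups overlapped, and so did the diet groups. As log2 fold changes these were 0.04 (SE 0.20, adjusted p 0.929) for 4 °C over 22 °C and 0.11 (SE 0.32, adjusted p 0.904) for HFD over CD, and each turned negative under other scalings. Within library types the cold values were 0.14 and −0.06 and the HFD values 0.24 and −0.02. Lpl was therefore at 134 and 99.6 times Lmf1 in the 4 °C libraries and at 44.9 and 31.9 times in the 22 °C libraries. In CD this ratio was 55.6 and 59.0, and in HFD 46.9 and 46.7.

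Gpihbp1 (ENSMUSG00000022579, chr15:75596628-75599481, plus strand), the endothelial anchor of the lipase, was at 74.18 and 49.91 FPKM at 22 °C and at 109.0 and 117.7 FPKM at 4 °C. It was at 60.61 and 31.71 FPKM in CD and at 69.13 and 114.3 FPKM in HFD. Both 4 °C libraries exceeded both 22 °C libraries and both HFD libraries exceeded both CD libraries. Across all 4 groups, each group overlapped the next in order of mean. On the log2 scale the difference was 0.89 (SE 0.28, adjusted p 0.142) in the cold and 1.0 (SE 0.54, adjusted p 0.45) under HFD, and neither passed. The HFD difference passed with library type as a covariate, with an adjusted p of 0.0197, a setting in which 4.25% of all genes passed, and not when all 8 libraries were fitted with it (adjusted p 0.16). Within library types it was 1.1 and 0.90, and the cold difference was 0.66 and 1.11. The 12 endothelial markers summed to 205 and 204 FPKM at 22 °C, 232 and 295 at 4 °C, 149 and 132 in CD and 212 and 244 in HFD. Gpihbp1 as a multiple of that sum was 0.362 and 0.245 at 22 °C, then 0.470 and 0.399 at 4 °C, 0.407 and 0.240 in CD and 0.326 and 0.469 in HFD. These ratios overlapped between the diet groups and did not overlap between the temperature groups. The largest part of the sum was Egfl7, at 82.59 and 82.44 FPKM at 22 °C and 84.87 and 97.31 at 4 °C. Of the 12 markers, 7 were higher and 3 lower in both 4 °C libraries, beside 37.9% and 20.6% of all genes tested. Their cold log2 fold changes ran from −1.477 (Aplnr) to 0.995 (Eng), with 0.14 for Egfl7, so the ratio depends on the markers summed. Whether endothelial content bears on Gpihbp1 was not tested.

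Angptl4 (ENSMUSG00000002289, chr17:33773750-33781575, minus strand), the inhibitor of the lipase and a gene known to respond to fasting, was at 62.42 and 49.09 FPKM at 22 °C and at 113.0 and 87.75 FPKM at 4 °C. It was at 65.92 and 52.6 FPKM in CD and at 88.39 and 150.1 FPKM in HFD. The 22 °C and CD libraries overlapped each other and lay below the 4 °C and HFD libraries, which also overlapped. On the log2 scale Angptl4 differed by 0.84 (SE 0.26, adjusted p 0.141) in the cold and 0.96 (SE 0.51, adjusted p 0.448) under HFD. With library type as a covariate the HFD difference had an adjusted p of 0.0293 and missed the threshold on its size alone, a setting in which 4.25% of all genes passed. When all 8 libraries were fitted with library type, the adjusted p was 0.106. Within library types the cold values were 0.48 and 1.19 and the HFD values 0.74 and 1.17. Fasting and cold cannot be told apart for Angptl4.

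Set against the lipase within each library, the inhibitor took opposite sides in the 2 comparisons. Angptl4 over Lpl was 0.122 and 0.146 at 22 °C and 0.0836 and 0.0701 at 4 °C, so both 4 °C ratios were lower. It was 0.152 and 0.122 in CD and 0.212 and 0.420 in HFD, so both HFD ratios were higher. Lpl over Gpihbp1 was 6.88 and 6.75 at 22 °C and 12.4 and 10.6 at 4 °C. The same ratio was 7.14 and 13.6 in CD and 6.02 and 3.13 in HFD. These ratios were chosen after values had been seen, and with 2 libraries against 2 an exact permutation test cannot go below a two-sided p of 0.333, so none was run.

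**Figure D2:**
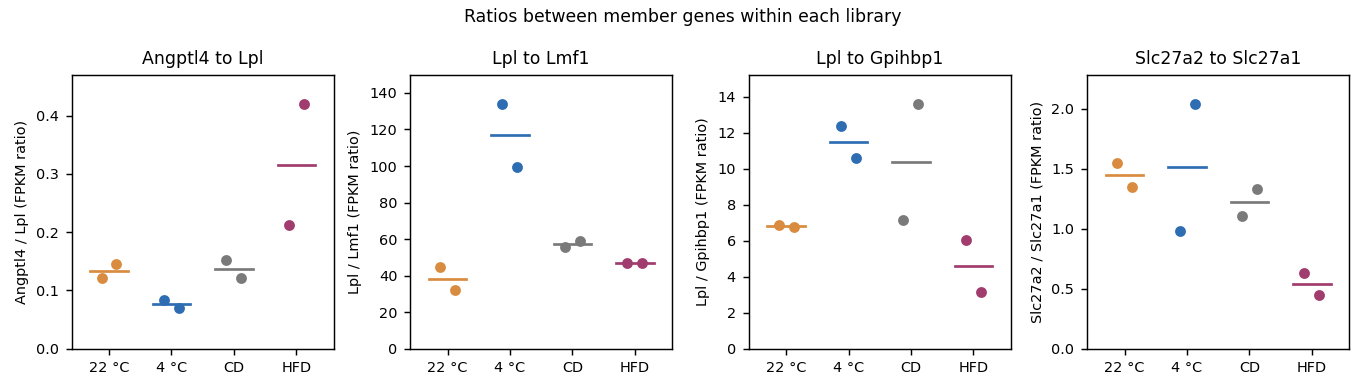
Ratios of FPKM within each library for Angptl4 over Lpl, Lpl over Lmf1, Lpl over Gpihbp1 and Slc27a2 over Slc27a1. Points are libraries, 2 per group. Angptl4 over Lpl was 0.0701 and 0.0836 at 4 °C and 0.212 and 0.420 in HFD, below and above the values of 22 °C and CD.

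Cd36 (ENSMUSG00000002944, chr5:17781690-17888801, minus strand), the fatty acid translocase of adipocytes and endothelial cells, was at 570.5 and 471.5 FPKM at 22 °C and at 1115 and 801.3 FPKM at 4 °C. It was at 1154 and 615.9 FPKM in CD and at 987.3 and 1485 FPKM in HFD. The 22 °C libraries were the lowest of the 8, and the other 3 groups overlapped. The 2 CD libraries differed by more than the means of CD and HFD did. For Cd36 the cold difference was 0.86 on the log2 scale (SE 0.35, adjusted p 0.211) and the HFD difference 0.52 (SE 0.74, adjusted p 0.792). Within library types these were 0.49 and 1.24 in the cold and 0.68 and 0.36 under HFD. With 1 library left out, the HFD difference lay between 0.07 and 0.97. Macrophages also carry CD36. Their 8 markers summed to 64.6 and 46.1 FPKM at 22 °C, 114 and 52.6 at 4 °C, 110 and 39.9 in CD and 194 and 247 in HFD. Of these markers 8 of 8 were higher in both HFD libraries, beside 39.9% of all genes tested. The part of macrophages in Cd36 was not tested.

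Vldlr (ENSMUSG00000024924, chr19:27216484-27254231, plus strand), a receptor that binds triglyceride-rich lipoproteins, was at 26.42 and 23.82 FPKM at 22 °C and at 88.73 and 54.82 FPKM at 4 °C. It was at 40.65 and 33.42 FPKM in CD and at 30.39 and 35.63 FPKM in HFD. The order was 22 °C lowest, HFD and CD overlapping in the middle, and 4 °C highest. Between 4 °C and 22 °C Vldlr differed by 1.44 on the log2 scale (SE 0.29) with an adjusted p of 0.0668, which ranged from 0.0219 to 0.287 over 15 other settings. It passed with library type as a covariate (adjusted p 0.0366), after median centring (0.0255) and without 4 °C replicate 11 (0.0475), settings in which 4.92%, 4.32% and 2.57% of all genes passed. Within library types it was 1.03 and 1.85. Between HFD and CD it was −0.16 (SE 0.41, adjusted p 0.893), and −0.13 and −0.19 within library types.

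The fatty acid transport proteins FATP1 (Slc27a1) and FATP2 (Slc27a2) are acyl-CoA synthetases that trap fatty acids as they enter, and FATP2 also acts on very-long-chain fatty acids in peroxisomes. Slc27a1 (ENSMUSG00000031808, chr8:71568882-71587302, plus strand) was at 57.99 and 57.16 FPKM at 22 °C and at 93.13 and 73.05 FPKM at 4 °C. It was at 80.12 and 61.26 FPKM in CD and at 56.29 and 72.24 FPKM in HFD, so each group overlapped the next. On the log2 scale it differed by 0.51 (SE 0.24, adjusted p 0.255) in the cold and −0.13 (SE 0.47, adjusted p 0.922) under HFD. Within library types the values were 0.33 and 0.69 in the cold and −0.12 and −0.15 under HFD.

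Slc27a2 (ENSMUSG00000027359, chr2:126552407-126588243, plus strand) was at 89.29 and 81.46 FPKM in CD and at 35.4 and 32.32 FPKM in HFD. It was at 89.86 and 77.36 FPKM at 22 °C and at 91.56 and 148.8 FPKM at 4 °C. Both HFD libraries were the lowest of all 8, and the 22 °C and CD libraries overlapped. From CD to HFD the difference was −1.31 on the log2 scale (SE 0.43) with an unadjusted p of 0.0184 and an adjusted p of 0.245 from limma. The adjusted p over 15 other settings ran from 0.0102 to 1.0, and it passed with library type as a covariate, as 4.25% of all genes did, and not when all 8 libraries were fitted with it (adjusted p 0.0514). Within library types the log2 fold change was −1.18 and −1.44. Between 4 °C and 22 °C it was 0.48 (SE 0.31, adjusted p 0.397), with 4 °C replicate 2 only just above 22 °C replicate 4, and it turned to −0.05 after quantile normalization. Its cold values within library types were 0.72 and 0.24. The lncRNA Gm26697 overlaps 1256 bases of the gene on the opposite strand, and its FPKM was between 0.179 and 0.683. The ratio of Slc27a2 to Slc27a1 was 1.55 and 1.35 at 22 °C, then 0.983 and 2.04 at 4 °C, 1.11 and 1.33 in CD and 0.629 and 0.447 in HFD. The last of these groups lay below all others.

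Fabp3 (ENSMUSG00000028773, chr4:130308595-130315463, plus strand), the fatty acid-binding protein of heart and oxidative muscle that BAT also expresses, was the 1 member to pass in the cold. It was at 131.0 and 159.1 FPKM at 22 °C and at 612.8 and 663.7 FPKM at 4 °C. It was at 497.5 and 474.8 FPKM in CD and at 787.7 and 547.3 FPKM in HFD. The 22 °C libraries were thus lowest by a wide margin, below CD by a factor of 3.35 in the means, and the 4 °C and HFD libraries overlapped. The means were 145.0 ± 19.87 at 22 °C and 638.2 ± 36.02 FPKM at 4 °C (SD over 2 libraries). Fabp3 thus rose by 2.14 on the log2 scale (SE 0.28) with an adjusted p of 0.0442 from limma. Within library types it was 2.33 and 1.94. This call was lost in 7 of 15 other settings. It was lost with no filter on low values (2.14 on the log2 scale, adjusted p 0.171) and after quantile normalization (1.62, 0.0844). It was also lost after rescaling to an equal sum over autosomal genes (1.70, 0.0696) and with a muscle marker score as a covariate (2.0, 0.28). The others were without 22 °C replicate 4, without 4 °C replicate 2 and without 4 °C replicate 11, with log2 fold changes of 2.0, 2.19 and 2.08. Between HFD and CD the log2 fold change was 0.43 (SE 0.64, adjusted p 0.801), and 0.73 and 0.14 within library types. Mice of CD and of 22 °C belonged to separate experiments and differed in age, which cannot be told apart from their difference.

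Skeletal muscle expresses Fabp3 and Lpl strongly, and its 11 markers in the table had higher values in the 4 °C libraries. By limma, however, 0 of 11 passed the threshold in either comparison, beside 1.44% of all genes tested in the cold and 0.0684% under HFD. Of the markers, 11 in the cold and 10 under HFD had an unadjusted p under 0.05, beside 24.5% and 14.4% of all genes tested. They summed to 569 and 117 FPKM at 22 °C and to 4560 and 1980 FPKM at 4 °C, and 11 of 11 had both 4 °C values above both 22 °C values, at a median of 3.37 on the log2 scale, beside 37.9% of all genes tested. In the diet comparison they summed to 576 and 1520 FPKM in CD and to 185 and 15.5 FPKM in HFD, and 10 of 11 were lower in both HFD libraries, beside 5.8% of all genes tested. Within groups, the library with the higher muscle sum had the higher Lpl at 22 °C, at 4 °C and in HFD, while the CD libraries had equal Lpl. For Fabp3 it had the lower value at 22 °C, at 4 °C and in CD and the higher value in HFD. The part of muscle in these results was not tested. With the muscle marker score as a covariate in a fit of all 8 libraries, the log2 fold change of Fabp3 in the cold was 2.0 (adjusted p 0.28) and that of Lpl was 1.23 (adjusted p 0.431). By limma 0 of 18902 genes passed for the cold in that fit, and 2875 had an unadjusted p under 0.05.

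**Figure D3:**
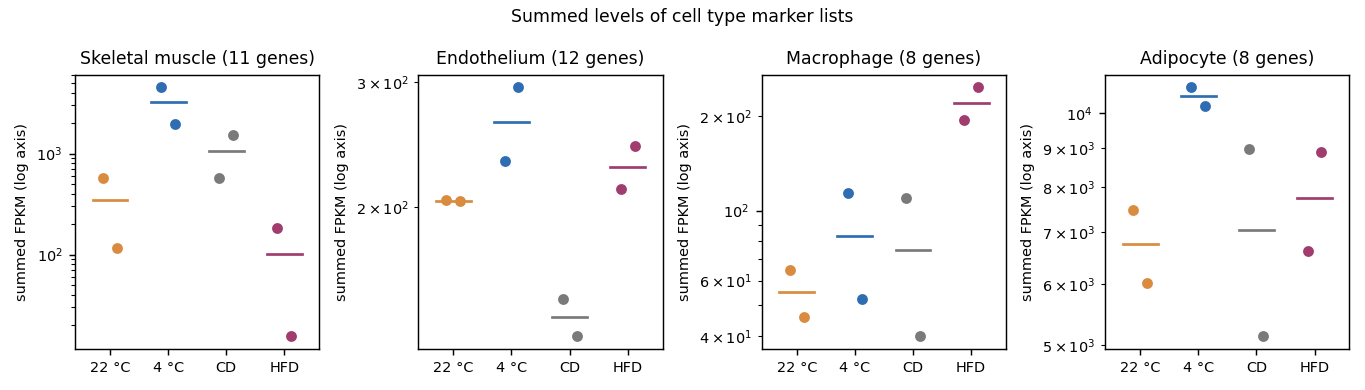
Summed FPKM of marker genes of skeletal muscle (11 genes), endothelium (12), macrophages (8) and adipocytes (8) on a log axis. Points are libraries, 2 per group. The muscle sum ran from 15.5 in HFD replicate 6 to 4560 in 4 °C replicate 2, and the macrophage sum was 194 and 247 in HFD.

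Mfsd2a (ENSMUSG00000028655, chr4:122946850-122961188, minus strand), a sodium-dependent transporter of lysophosphatidylcholine that carries fatty acids such as docosahexaenoic acid, was chosen for its values in the cold. It was at 1.172 and 0.2119 FPKM at 22 °C, equal to about 290 and 51 fragments, and at 51.93 and 57.82 FPKM at 4 °C, equal to about 9350 and 12200 fragments. The ratio of the means was 79.3 and the log2 fold change 5.10, with no test. Against 22 °C replicate 4 alone the 4 °C mean was 46.8 times higher and against replicate 7 alone 259 times. With 0.1 in place of 1 as the pseudocount it was 6.45, since the lower group is near the pseudocount. In the diet libraries, which did not serve to choose it, Mfsd2a was at 4.494 and 3.649 FPKM in CD and at 3.524 and 6.905 FPKM in HFD. These groups overlapped, with a difference of 0.24 on the log2 scale (SE 0.36, adjusted p 0.802). Its differences within library types were 4.76 and 5.45 in the cold and −0.04 and 0.53 under HFD. The order over the 4 groups was 22 °C, then CD and HFD overlapping, then 4 °C.

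**Figure D4:**
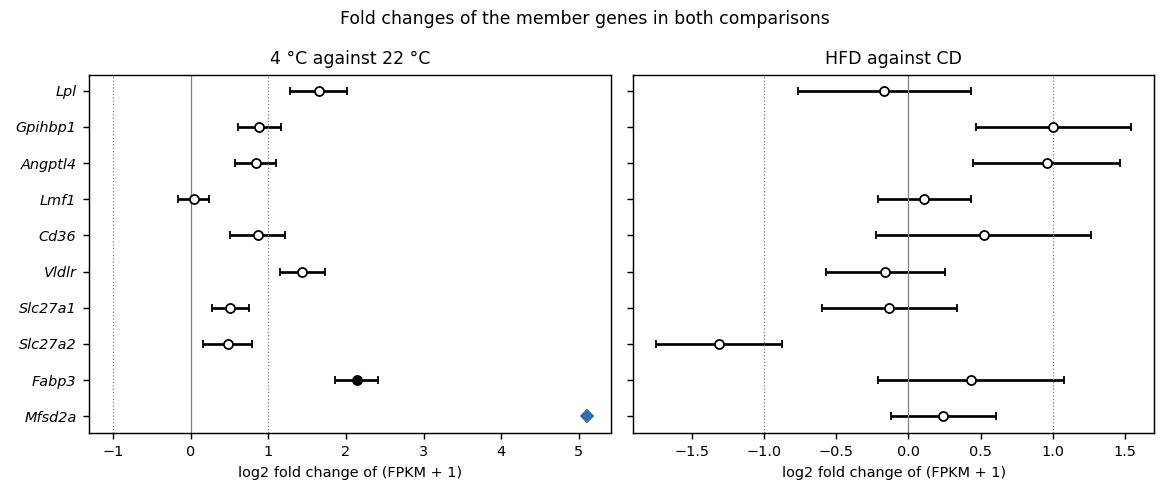
Log2 fold change ± SE (limma, on log2(FPKM + 1)) of each member for 4 °C over 22 °C and for HFD over CD, with dotted lines at −1 and 1. Filled points have an adjusted p under 0.05, which holds for Fabp3 in the cold; Mfsd2a in the cold is drawn as a diamond without an error because it was chosen for that value.

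The difference between the cold effect and the diet effect was tested for the 9 members other than Mfsd2a by an interaction term over all 8 libraries. By limma 0 of 9 passed, beside 1.04% of 18902 genes, and 4 had an unadjusted p under 0.05, beside 18.4% of all genes. For Slc27a2 the difference was 1.79 on the log2 scale (SE 0.47, unadjusted p 0.00564, adjusted p 0.105). For Vldlr it was 1.60 (SE 0.44, unadjusted p 0.00746, adjusted p 0.118). For Lpl it was 1.81 (SE 0.64, unadjusted p 0.0245, adjusted p 0.197), and for Fabp3 it was 1.70 (SE 0.60, unadjusted p 0.0238, adjusted p 0.195). The 2 endothelial and secreted partners of the lipase, Gpihbp1 and Angptl4, had differences of −0.12 (SE 0.61) and −0.12 (SE 0.52), errors that leave room for a difference on either side.

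Median centring takes nearly the same amount from every gene, so it lowers all values. After it, the cold values on the log2 scale were 1.88 for Fabp3, 1.39 for Lpl, 1.19 for Vldlr, 0.63 for Gpihbp1, 0.61 for Cd36 and 0.58 for Angptl4. They were 0.26 for Slc27a1, 0.23 for Slc27a2 and −0.22 for Lmf1. Under HFD they were 0.65 for Gpihbp1, 0.60 for Angptl4, 0.17 for Cd36 and 0.08 for Fabp3. They were −1.66 for Slc27a2, −0.52 for Lpl, −0.51 for Vldlr, −0.49 for Slc27a1, −0.24 for Lmf1 and −0.11 for Mfsd2a. Both 4 °C libraries were then above both 22 °C libraries for 7 of the 9 members, beside 19.95% of all genes tested. After rescaling to an equal sum over autosomal genes, that held for 3 of 9 (Lpl, Vldlr and Fabp3), beside 13.8% of all genes tested. In the diet comparison, median centring left Gpihbp1 and Angptl4 higher in both HFD libraries and put Lpl, Vldlr, Slc27a1 and Slc27a2 below CD in both, beside 11.3% and 28.5% of all genes tested. After rescaling to an equal sum, Gpihbp1, Angptl4 and Cd36 were higher in both HFD libraries, beside 34.3% of all genes tested. Slc27a1 and Slc27a2 were then lower in both, beside 10.3% of all genes tested. Gpihbp1 and Angptl4 higher and Slc27a2 lower were the positions shared by the deposited scale and both rescalings.

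**Figure D5:**
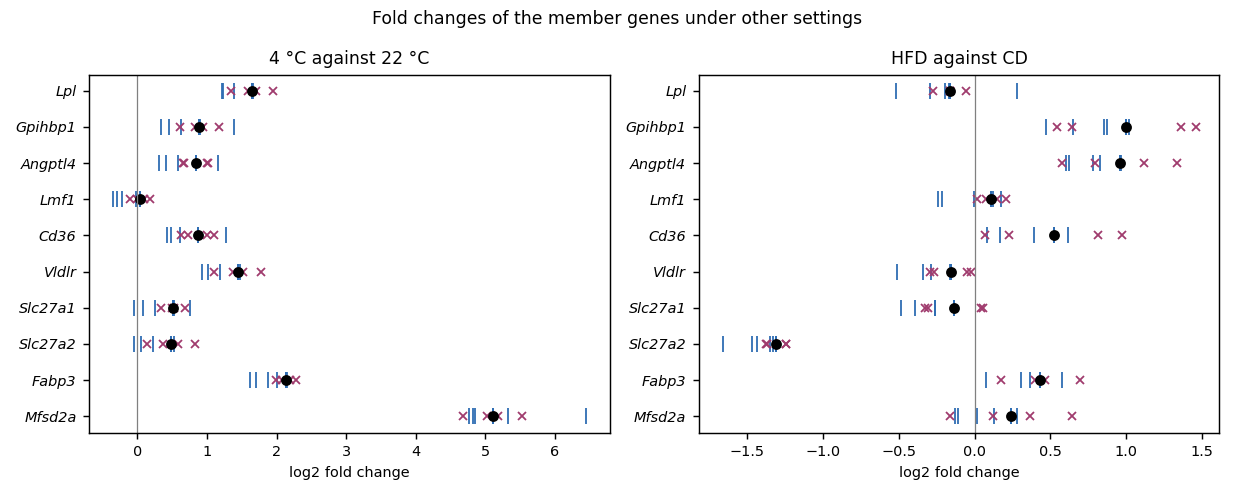
Log2 fold change of each member in both comparisons as analysed (black), under the other processing settings (blue ticks, 1 per setting) and with 1 library left out (purple crosses). In the cold, of the 9 members other than Mfsd2a, which was chosen for its cold values, all but Lmf1, Slc27a1 and Slc27a2 keep their side of 0 throughout. Under HFD 6 of the 10 members do, the exceptions being Lpl, Lmf1, Slc27a1 and Mfsd2a.

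Promoter sequence is shown for Mfsd2a, Fabp3 and Vldlr, which with Lpl had the largest cold differences, to place the bases before their starts beside the values. RefSeq windows (GRCm38.p6) were matched for 7 of the 10 members, and Lpl, Gpihbp1 and Angptl4 had no entry. Sequences are given 5′ to 3′ on the gene's strand and end at the base before the annotated start. Capitals mark a searched motif on either strand.
Mfsd2a, chr4:122961189-122961438, minus strand: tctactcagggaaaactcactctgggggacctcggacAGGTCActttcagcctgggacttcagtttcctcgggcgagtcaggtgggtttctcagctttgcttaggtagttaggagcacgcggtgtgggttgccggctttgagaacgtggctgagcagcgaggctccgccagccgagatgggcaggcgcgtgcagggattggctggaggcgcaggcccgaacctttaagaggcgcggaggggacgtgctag
Fabp3, chr4:130308488-130308594, plus strand: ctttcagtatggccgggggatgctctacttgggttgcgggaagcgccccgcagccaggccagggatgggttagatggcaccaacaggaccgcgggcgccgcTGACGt
Vldlr, chr19:27216234-27216483, plus strand: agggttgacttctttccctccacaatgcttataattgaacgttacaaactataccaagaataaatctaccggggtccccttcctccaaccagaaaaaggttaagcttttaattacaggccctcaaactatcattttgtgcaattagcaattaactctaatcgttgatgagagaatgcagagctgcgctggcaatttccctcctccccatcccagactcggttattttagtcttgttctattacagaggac
The motifs searched were the cAMP response element TGACGTCA, its half-site TGACG (contained in the first), the nuclear receptor half-site AGGTCA, the direct repeat AGGTCANAGGTCA (which contains the half-site) and the E-box CACGTG. Over 32851 RefSeq promoter windows they were found in 1.79%, 20.8%, 16.3%, 0.0396% and 7.15%. Mfsd2a held 1 AGGTCA, as did Cd36 and Slc27a2, and Fabp3 held 1 TGACG, as did Lmf1. One of the 3 windows of Slc27a1 held CACGTG and Vldlr held none of the motifs. The full cAMP response element and the direct repeat were in none of the 10 windows of the 7 members.

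Lists of pathway genes other than the members put these values in context. They held 66 genes, of which 54 entered each test. In the cold 2 rose and 0 fell past the threshold (1.44% of all genes tested passed), 20 had an unadjusted p under 0.05 (24.5% of all genes tested did), 27 were higher in both 4 °C libraries and 11 lower (37.9% and 20.6% of all genes tested), and the median log2 fold change was 0.30 against 0.07 over all genes tested. Ppargc1a, a coactivator of mitochondrial genes, rose by 2.92 (SE 0.25, adjusted p 0.0208). At 22 °C it measured 10.86 and 10.85 FPKM, against 107.5 and 73.6 FPKM at 4 °C. Cav3, the caveolin of muscle, rose by 1.73 (SE 0.22, adjusted p 0.0441), from 0.3956 and 0.07438 to 3.749 and 2.456 FPKM, beside the muscle markers above.

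Among the lipase partners in the cold, 0 of 15 tested passed by limma, beside 1.44% of all genes tested. An unadjusted p under 0.05 was reached by 7 of the 15, beside 24.5% of all genes tested. Lipg, the endothelial lipase, had a log2 fold change of 1.67 (adjusted p 0.0543), Apoc2, the cofactor of lipoprotein lipase, of 1.25 (adjusted p 0.0548) and Pcsk6, a protease that cleaves lipases, of 1.23 (adjusted p 0.0883). Among lipoprotein receptors, the scavenger receptor Scarb1 had −0.76. By limma 0 of 8 receptors passed the threshold and 3 had an unadjusted p under 0.05, beside 1.44% and 24.5% of all genes tested. All 4 long-chain acyl-CoA synthetases tested were higher in both 4 °C libraries, as 37.9% of all genes tested were, led by Acsl5 at 1.83 (adjusted p 0.161), and by limma 0 passed and 2 had an unadjusted p under 0.05, beside 24.5% of all genes tested. Fabp4, the main FABP of adipocytes, had 1.0 (adjusted p 0.249). Fabp3 over Fabp4 was 0.0347 and 0.0458 at 22 °C, then 0.0807 and 0.0959 at 4 °C, 0.0749 and 0.137 in CD and 0.166 and 0.0848 in HFD.

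In the diet comparison 0 of 54 pathway genes passed by limma, beside 0.0684% of all genes tested, and 13 had an unadjusted p under 0.05, beside 14.4% of all genes tested. Both HFD libraries were higher for 27 and lower for 7 (39.9% and 5.8% of all genes tested), with a median log2 fold change of 0.33 against 0.18 over all genes tested. Acsl5 had −2.13 (adjusted p 0.151), with 86.79 and 54.47 FPKM in CD against 13.42 and 16.65 FPKM in HFD, the same side as Slc27a2. The caveolar coat genes Prkcdbp (cavin 3) and Ptrf (cavin 1) had 1.53 (adjusted p 0.17) and 1.49 (adjusted p 0.306). The scavenger receptor Stab1, carried by macrophages and some endothelium, had 1.80 (adjusted p 0.151), and Apoe had 1.15 (adjusted p 0.422), beside the higher macrophage sums in HFD. Apoc1 had −1.56 (adjusted p 0.329).

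The genes whose profile over the 8 libraries was most like each member were found by Pearson r on log2(FPKM + 1) among 10876 autosomal genes averaging 1 FPKM or more. These are descriptions over 8 points that share library and depth. Lpl was closest to Ptges3l (r 0.974), Tacr2 (0.968) and Psma6 (0.967), and Tacr2 went from 0.0383 and 0.102 FPKM at 22 °C to 5.01 and 3.30 FPKM at 4 °C. Mfsd2a was closest to Adam12 (0.983), Herpud1 (0.977) and Tmcc1 (0.976), an order that rests on the cold values it was chosen for. Vldlr was closest to Dnaja4 (0.992), Rnf115 (0.99) and Schip1 (0.989), and Fabp3 to Psmd7 (0.99), Mtif2 (0.95) and Pigq (0.947). Angptl4 was closest to Emp2 (0.993), Litaf (0.99) and Entpd1 (0.988), and Gpihbp1 to Timp4 (0.977), Rpsa (0.976), whose pseudogene copies make its value uncertain, and Cox4i2 (0.975). Cd36 was closest to Tnpo1 (0.987), Pggt1b (0.985) and Thumpd3 (0.981), and Slc27a1 to Vdac1 (0.989), Timm8b (0.987) and Ppp1r3c (0.986). Slc27a2 was closest to Acss1 (0.932), Pxmp4 (0.923), a peroxisomal membrane protein gene, and the elongase gene Elovl6 (0.914). Lmf1 was closest to Mtmr4 (0.978), Gm9899 (0.949) and D530018E20Rik (0.942). Among the 9 members other than Mfsd2a, the closest pair was Vldlr and Slc27a1 (r 0.899), followed by Lpl and Vldlr (0.869) and by Angptl4 and Cd36 (0.849).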

How the data were processed

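Directional libraries were made by the authors from RNA depleted of ribosomal RNA. Reads were mapped to GRCm38 with TopHat2 2.0.10 and quantified with Cufflinks on Ensembl release 87 (version 2.2.1 in the submitters' processing notes). The deposited table holds FPKM for 49452 genes, of which 49109 matched GENCODE M21, and 0 other per-sample columns. Counts were not used here, so the planned count test was replaced by limma 3.58.1 (R 4.3.3) on log2(FPKM + 1), with an intensity trend and the 4 libraries of a comparison. Adding 1 understates changes of low genes. Genes needed at least 0.1 FPKM in 2 libraries, and X, Y and mitochondrial genes were left out. P-values are two-sided with Benjamini-Hochberg adjustment over all genes tested, and past the threshold means an adjusted p under 0.05 and a log2 fold change of 1 or more in size. SE is limma's moderated error.

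Members, pathway lists and marker lists were chosen with earlier results of these data known. Named pathway genes were those past the threshold and up to 4 more per list with the largest fold change at a mean of at least 1 FPKM, of which some are given in the text and 1 is not reported here, and likeness took the 3 genes of highest r per member. Low values fell on whole multiples of 1 fragment within 0.1 in 97.7% to 98.6% of 1151 to 2962 values per library, which covers counting error only. The test was tried on simulated data. Summaries used Python 3.11.15, NumPy 2.4.6, pandas 2.3.3 and matplotlib 3.10.9. Alternatives changed the pseudocount, filter, scaling, chromosomes, covariates, libraries and threshold.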

Additional observations from a re-analysis of the deposited data

Results flagged for a closer look

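For Lpl and Slc27a2, on the deposited scale, both 4 °C libraries were above both 22 °C libraries and both HFD libraries were below both CD libraries. Singly, these positions were held by 37.9% and 5.8% of all genes tested, and the share holding both was not counted. Of the 11 skeletal muscle markers, 11 were higher in both 4 °C libraries and 10 were lower in both HFD libraries. With the muscle score as a covariate, the HFD log2 fold change was 0.28 for Lpl and −1.35 for Slc27a2. The part of muscle was not tested. The HFD libraries of Lpl overlapped CD after rescaling to an equal sum, and the 4 °C libraries of Slc27a2 overlapped 22 °C after either rescaling. As analysed, none of the 4 differences of Lpl and Slc27a2 passed the threshold. With library type as a covariate Lpl in the cold (adjusted p 0.0404) and Slc27a2 under HFD (0.0102) passed, and so did the difference between the effects for Slc27a2 (0.0492). In those fits 4.92%, 4.25% and 3.17% of all genes passed. When all 8 libraries were fitted with library type, Lpl in the cold passed (adjusted p 0.0486) and Slc27a2 under HFD did not (0.0514). The cold effect exceeded the diet effect by 1.81 for Lpl (adjusted p 0.197) and by 1.79 for Slc27a2 (adjusted p 0.105) on the log2 scale by limma's interaction term, so neither passed as analysed. For Lpl the HFD side was small, at 416.2 and 357.5 FPKM against 432.9 and 432.8 FPKM. For Slc27a2 the cold side was small, since 4 °C replicate 2 was at 91.56 FPKM and 22 °C replicate 4 at 89.86 FPKM.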

How the results depend on the processing

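Of the 9 members counted in the cold, 1 passed as analysed. The count was 0 with no filter, after quantile normalization, after rescaling to an equal sum and with the muscle score as a covariate, settings in which 0, 507, 665 and 0 genes passed in all against 252 as analysed. It was 2 after median centring (Vldlr and Fabp3; 755 genes in all) and 3 with library type as a covariate (Lpl, Vldlr and Fabp3; 859 genes in all), also when all 8 libraries were fitted with library type, a setting added after seeing the data. With 1 library left out, the log2 fold change of Fabp3 in the cold lay between 1.997 and 2.275. In the diet comparison the count of 0 became 2 with library type as a covariate (Gpihbp1 and Slc27a2), where the genes past the threshold went from 12 to 745 in all. It was again 0 when all 8 libraries were fitted with library type (Gpihbp1 adjusted p 0.16, Slc27a2 0.0514), and leaving out 1 library kept it at 0, with 98 to 726 genes past in all. For the difference between the effects, 0 became 1 after median centring (Vldlr, adjusted p 0.0364) and 1 with library type (Slc27a2, adjusted p 0.0492), while all genes went from 196 to 465 and 599. Small fold changes crossed 0. For Lmf1 in the cold, the log2 fold change was −0.29 (quantile), −0.22 (median centring), −0.35 (rescaled sum) and −0.024 (muscle score), and −0.11 to 0.18 with 1 library left out. Slc27a1 and Slc27a2 in the cold went to −0.052 and −0.048 after quantile normalization. In the diet comparison Lmf1 went to −0.21 (quantile), −0.24 (median centring) and −0.0038 (rescaled sum), Mfsd2a to −0.13 (quantile) and −0.11 (median centring) and to −0.16 to 0.65 with 1 library left out, Slc27a1 to −0.32 to 0.057 with 1 library left out, and Lpl to 0.28 with the muscle score. The cause was not tested. Where 1 library was left out, the lone library of its group was assumed to vary like the others. Pairing by replicate number was not possible because the 22 °C and 4 °C groups share no replicate number and CD and HFD share only 1. Library type, which matches 1 library of each group with 1 of the other, is the covariate given above. With 2 libraries per group, their number limits the precision.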
